A study of Homo sapiens with 3 samples.

Results

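The genes described here encode 2 families of RNA-binding proteins that steer pre-mRNA splicing, the heterogeneous nuclear ribonucleoproteins (hnRNPs) and the serine/arginine-rich (SR) proteins, measured in Caco-2 cells after depletion of the transcript OCC-1 (gene symbol C12orf75). A list of 38 genes was taken, 25 of them hnRNP genes (here including the PCBP genes, PTBP1, SYNCRIP and RALY) and 13 SR genes (SRSF1 to SRSF11, TRA2A and TRA2B). Every probe set of the array that carried the symbol of 1 of these genes and no other symbol was used. This gave 171 of 49395 probe sets and 37 of 18132 genes, with 104 probe sets for 24 hnRNP genes and 67 for the 13 SR genes. HNRNPH2 had no such probe set, because its 3 probe sets also carry the symbol of a read-through gene, and it is not reported.

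Caco-2 is an established human colorectal cancer line that can form an enterocyte-like layer in culture. Each of the 3 groups had 1 array: cells with the non-target short hairpin RNA shCTRL (the control), cells with the hairpin shOCC-1-1 against OCC-1 (line 1) and cells with a different hairpin against OCC-1, shOCC-1-2 (line 2). In all groups the hairpin was delivered by lentivirus, the cells were cultured in medium with 20% serum and selected with 1 µg per ml puromycin for 5 days, and total RNA was taken 24 h later, so the control had also passed through transduction and drug. Each group is 1 culture of transduced cells, with no replicate, and no p-value, SD or interval can be given for any difference. All 3 arrays enter as 1 sample each, and both lines are set against the same control array. The genes were chosen by their differences from the control on these same 3 arrays, so those differences are a description and support nothing by themselves. In bulk RNA, more RNA of a gene per cell and a larger share of cells that contain it cannot be told apart.

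As background, hnRNPs coat nascent transcripts, and many of them silence splice sites or exons through short RNA motifs, whereas SR proteins bind exonic enhancers through RNA recognition motifs and recruit the spliceosome through a domain rich in arginine and serine. The 2 families often act on the same exons in opposite directions, and both also take part in mRNA export, stability and translation. Their levels are tightly controlled in cells, and many of these genes contain exons whose inclusion directs their own mRNA to nonsense-mediated decay.

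The arrays gave an intensity per probe set on a linear scale, with medians of 185.5 (control), 182.5 (line 1) and 183.6 (line 2). A gene was represented by its brightest probe set, and only genes with a mean log2 intensity at or above 7.52 (the median of all probe sets) were counted, which left 11329 genes and all 37 of the genes described here. A gene was called when it differed from control by at least 1.5-fold in the same direction in both lines. C12orf75, the targeted gene, stood at 42.5% of control in line 1 and 32.5% in line 2. Of the markers of other cell types, 1 of 7 leukocyte and 1 of 6 endothelial genes with a probe set lay above the intensity filter, against 8 of 9 epithelial genes. The fibroblast list had 5 of 8 above it. The summed fibroblast intensities were 2368 (control), 2534 (line 1) and 2371 (line 2), against 28154, 31170.1 and 31946 for the epithelial list. The ratio of the 3' to the 5' control probe set of actin was 6.15 (control), 7.13 (line 1) and 7.38 (line 2), while that of GAPDH was 1.10, 1.05 and 1.08. Background control probe sets with 18 to 25 G or C bases per probe had a median log2 difference from control of -0.25 in line 1 and -0.20 in line 2, those with 3 to 10 such bases 0.04 and 0.02. The part of these array differences in the results was not tested.

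By their brightest probe sets (highest mean log2 intensity over the 3 arrays), 4 hnRNP genes were called higher and none of the 37 genes was called lower. The higher genes were HNRNPK, HNRNPA2B1, HNRNPH1 and HNRNPR, 4 of 24 hnRNP genes, and no SR gene of 13 was called. Of all genes 1.36% were called higher and 0.159% lower by the same rule. At 1.3-fold SRSF3 and SRSF8 were added, which made 6 of 37 genes higher against 5.31% of all genes, with 0 lower against 0.936%, and at 2-fold no member was called in either direction, against 0.0706% of all genes higher and 0.0353% lower. The choice of probe set decided the calls of HNRNPK, HNRNPA2B1 and HNRNPR, the 3 called genes with more than 1 probe set. When the probe sets of each gene were averaged HNRNPH1 alone was called, and with their median HNRNPH1 and HNRNPDL. The share of all genes called was not taken for the mean or the median. Ranked on the control array alone, an alternative added after these values were seen, HNRNPA2B1 and HNRNPH1 were called, while HNRNPK was at log2 0.51 and 0.50 and HNRNPR at -0.05 and -0.10. By that ranking 1.11% of all genes were called higher and 0.159% lower. Another probe set was the brightest on the control array for 28 of 153 genes called higher (18.3%) and for 344 of 11322 genes in all (3.04%), since a probe set that is high in both lines gains in a ranking over all 3 arrays.

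The share of genes higher than control in both lines by any amount was 22 of 37, with 6 lower in both and 9 on opposite sides, while over all genes 36.5% were higher in both and 45.7% lower in both. The counts depended on the scaling: 21 were higher and 14 lower in both lines with quantile normalization, and 23 higher and 9 lower with cyclic loess. The shares over all genes were not taken under these scalings.

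The promoters of the 4 called genes are shown because these genes met the 1.5-fold rule in both lines, as windows from 250 bases before to 50 bases after an annotated start of transcription, from RefSeq (GRCh38.p14). Where a gene has several starts, the window with the most CpG dinucleotides was taken, and all 4 lie on the minus strand. Capitals mark every match, on either strand, to 1 of 6 motifs: the GC box GGGCGG, the CCAAT box CCAAT, the ETS core CCGGAA, the NRF1 motif GCGCATGCG, the TATA box TATAAA and the YY1 motif AAGATGGCG. The windows are chr7:26200697-26200996 for HNRNPA2B1, chr5:179623352-179623651 for HNRNPH1, chr9:83980166-83980465 for HNRNPK and chr1:23344235-23344534 for HNRNPR.
HNRNPA2B1: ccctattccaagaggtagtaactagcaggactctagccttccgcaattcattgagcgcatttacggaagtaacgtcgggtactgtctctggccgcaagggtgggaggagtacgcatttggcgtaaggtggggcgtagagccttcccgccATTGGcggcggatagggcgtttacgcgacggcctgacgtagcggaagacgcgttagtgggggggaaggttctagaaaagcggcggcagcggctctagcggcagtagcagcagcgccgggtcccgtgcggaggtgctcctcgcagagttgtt
HNRNPH1: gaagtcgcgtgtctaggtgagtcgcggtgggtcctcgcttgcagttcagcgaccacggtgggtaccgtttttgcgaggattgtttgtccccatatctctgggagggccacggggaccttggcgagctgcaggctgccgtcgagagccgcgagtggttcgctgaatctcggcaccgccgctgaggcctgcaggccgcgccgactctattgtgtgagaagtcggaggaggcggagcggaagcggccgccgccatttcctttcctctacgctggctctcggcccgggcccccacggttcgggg
HNRNPK: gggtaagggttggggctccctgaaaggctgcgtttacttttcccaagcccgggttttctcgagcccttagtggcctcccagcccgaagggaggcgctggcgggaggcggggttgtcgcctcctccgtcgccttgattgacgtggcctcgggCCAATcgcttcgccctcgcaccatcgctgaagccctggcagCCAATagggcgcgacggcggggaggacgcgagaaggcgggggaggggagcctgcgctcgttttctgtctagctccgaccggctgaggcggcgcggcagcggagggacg
HNRNPR: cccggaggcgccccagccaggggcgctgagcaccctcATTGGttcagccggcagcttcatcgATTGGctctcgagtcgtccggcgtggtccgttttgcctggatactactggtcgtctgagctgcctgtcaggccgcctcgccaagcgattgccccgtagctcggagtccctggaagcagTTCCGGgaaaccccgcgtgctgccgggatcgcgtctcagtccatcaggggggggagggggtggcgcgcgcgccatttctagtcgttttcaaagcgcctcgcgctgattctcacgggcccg

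The 4 windows hold 29 to 33 CpG dinucleotides each and 60.3% to 68.3% G and C. CCAAT boxes were found in 3 of them, 2 in HNRNPK, 2 in HNRNPR and 1 in HNRNPA2B1, and an ETS core in HNRNPR. The HNRNPH1 window held none of these letters, while the GC box, the NRF1 motif, the TATA box and the YY1 motif matched in none of the 4. Windows at other starts of these genes, not shown, did hold some. The other HNRNPK window had 3 GC boxes. Of the other HNRNPH1 windows 1 had a GC box and an NRF1 match, another had a CCAAT box and the last had none. Promoter windows were found for 34 of the 37 genes, 49 windows in all since some genes have several starts. The CCAAT box was in 19 of 35 hnRNP windows (54.3%) and 3 of 14 SR windows (21.4%), against 34.6% of all 35116 windows and 35% of the windows of genes above the intensity filter. Each window was counted, so a gene with several starts counts more than once. The SR windows with a CCAAT box were those of SRSF3 and SRSF8, and the windows of SRSF8 overlap. The GC box was in 74.3% of hnRNP windows and 42.9% of SR windows, against 45% of all windows and 65.2% of those of genes above the filter. The ETS core was in 11 hnRNP windows (31.4%) and 2 SR windows (14.3%), against 17.2% of all windows. For the TATA box these were 3 (8.57%) and 3 (21.4%), against 11.5%, and for the NRF1 motif 1 (2.86%) and 2 (14.3%), against 1.92%. In windows of genes above the filter the ETS core was in 26%, the TATA box in 6.48%, the NRF1 motif in 3.03% and the YY1 motif in 3.44%. The NRF1 motif was first searched with 1 more base, as a palindrome, which was in 0 of the 49 member windows and 1.24% of all windows. The YY1 motif was in no member window, against 1.75% of all windows. These matches are letters in a window, and no factor's binding was measured.

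HNRNPK, which binds C-rich RNA and DNA through KH domains, had the largest difference of the 37 genes. Its brightest probe set had an intensity of 1746 (control), 3313 (line 1) and 3342.5 (line 2). The 2 lines lay close together and both far above the control, at 1.90-fold and 1.91-fold. On the control array itself another HNRNPK probe set was brighter, at 2091, and it read 2979.6 (line 1) and 2962 (line 2). The other 5 HNRNPK probe sets above the filter were also higher in both lines, by log2 0.33 to 0.55 in line 1 and 0.33 to 0.53 in line 2, and none of them was called. In place of the brightest, the mean of all HNRNPK probe sets gave 0.53 in both lines, short of the 0.58 that corresponds to 1.5-fold.

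HNRNPA2B1 encodes the splicing regulators hnRNP A2 and B1, which also take part in RNA transport. Its brightest probe set read 1982 (control), 3256 (line 1) and 3224 (line 2), which is 1.64-fold and 1.63-fold. Its only other probe set read 919.7, 919 and 915, with no difference between the 3 arrays beyond log2 0.01. The gene was therefore called by 1 of its 2 probe sets, and the mean of both gave 0.36 and 0.35.

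HNRNPR, a close relative of SYNCRIP (hnRNP Q), had the same split. Its brightest probe set read 2471 (control), 3913 (line 1) and 3865 (line 2), or 1.58-fold and 1.56-fold. The next read 3209, 3097 and 2993, so that here the control was the highest array, with differences of -0.05 and -0.10. This second probe set was the brighter of the pair on the control array. With quantile normalization the brightest probe set reached 0.60 and 0.57, and HNRNPR was no longer called.

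HNRNPH1, which binds runs of G in introns and exons, was measured by 1 probe set. It read 767 (control), 1224 (line 1) and 1204 (line 2), which is 1.60-fold and 1.57-fold. HNRNPH1 was called under each scaling and each summary of probe sets, but with 1 probe set the summaries cannot differ.

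**Figure D1:**
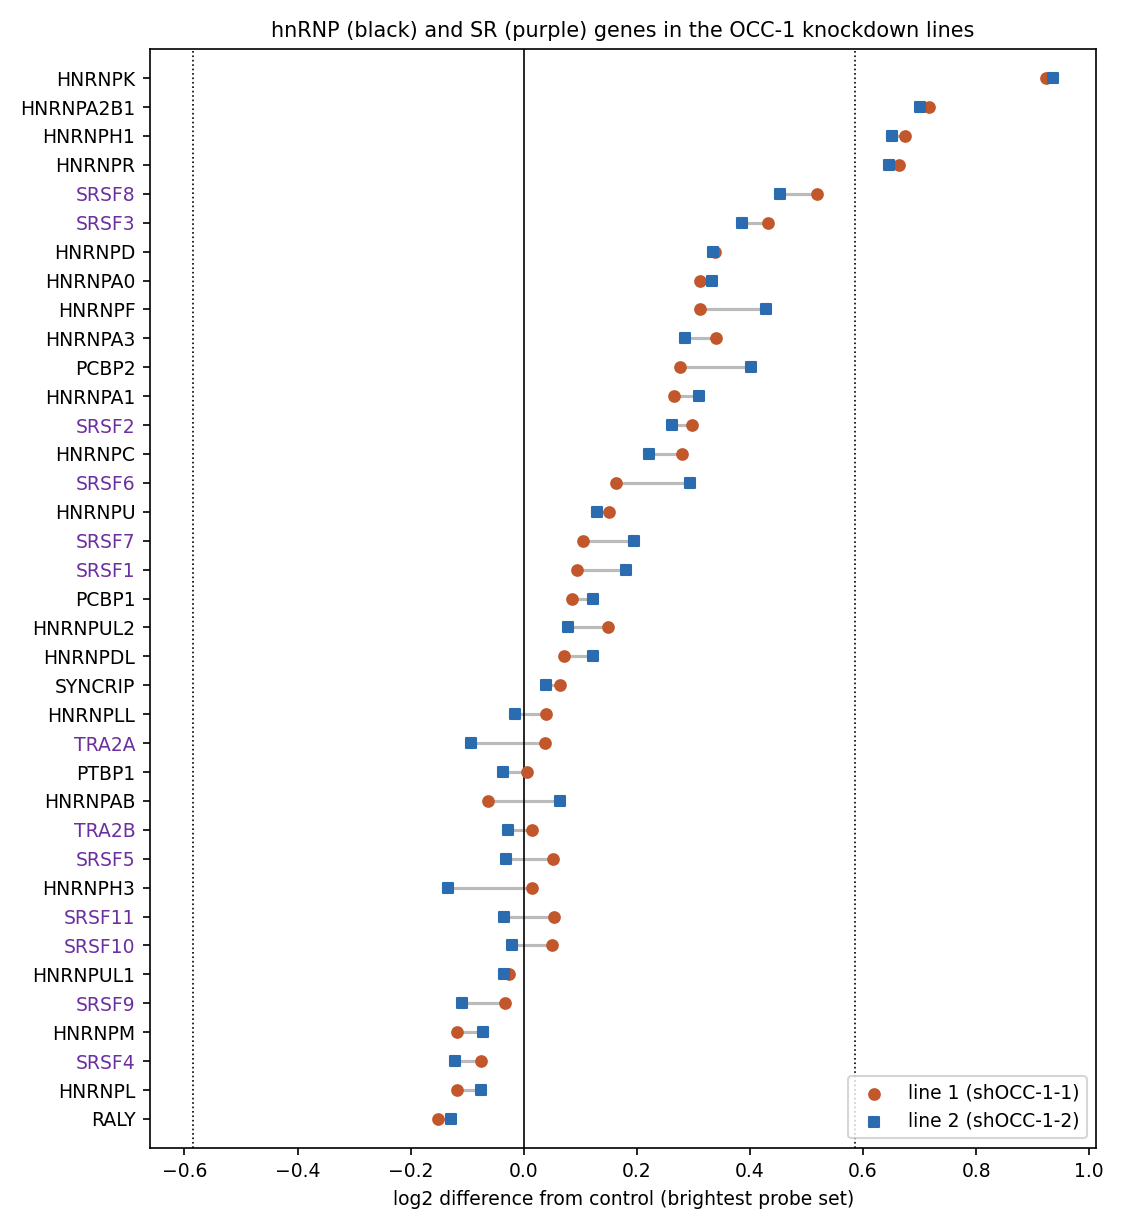
Log2 difference from the control array for the brightest probe set of each of the 37 genes, with circles for line 1, squares for line 2 and dotted lines at 1.5-fold. HNRNPK, HNRNPA2B1, HNRNPH1 and HNRNPR lie beyond the dotted line in both lines, and RALY has the lowest value in line 1.

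Within the hnRNP families, the 4 A/B genes were all higher in both lines by the brightest probe set, as were 36.5% of all genes. They stayed so under all 4 alternative scalings. Not every probe set of these genes was higher: the second of HNRNPA2B1 was level with control, and the fourth of HNRNPA3 was at log2 0.05 and -0.03. HNRNPA0, which binds AU-rich RNA, read 2290.5 (control), 2845 (line 1) and 2885 (line 2) (1.24-fold and 1.26-fold). HNRNPA3 was at log2 0.34 and 0.28 and HNRNPA1, the classical splicing silencer, at 0.26 and 0.31. HNRNPA1 has near-identical processed copies in the genome, and 4 of its 5 probe sets have the name ending _x_at that marks probes likely to cross-hybridise, so its values may include other transcripts.

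Of the remaining families, K and PCBP (HNRNPK, PCBP1, PCBP2) and R and Q (HNRNPR, SYNCRIP) also had every gene higher in both lines by the brightest probe set. HNRNPK, PCBP1 and PCBP2 stayed higher in both lines under every alternative scaling. The other families were more mixed, and each held a gene that was not higher in both lines. HNRNPD, also known as AUF1 and a regulator of AU-rich mRNAs, read 3196 (control), 4042 (line 1) and 4029.9 (line 2) (1.26-fold in both), and its relatives HNRNPDL (0.07 and 0.12) and HNRNPAB (-0.06 and 0.06) lay near the control. HNRNPF, which binds G-runs like HNRNPH1, read 3432, 4259 and 4621, higher in line 2 (1.35-fold) than in line 1 (1.24-fold). HNRNPH3 was at 0.01 and -0.13 by its brightest probe set. The second HNRNPH3 probe set was higher, at 0.48 and 0.47, and so was the third, at 0.18 and 0.17. With the median of probe sets HNRNPF was at 0.033 and 0.15 and HNRNPD at 0.062 and 0.11. The poly(C)-binding genes PCBP2 (0.28 and 0.40) and PCBP1 (0.09 and 0.12) were higher in both lines by less than HNRNPK. HNRNPC, a U-tract binder, was at 0.28 and 0.22, HNRNPU of the nuclear scaffold at 0.15 and 0.13, HNRNPUL2 at 0.15 and 0.08, and SYNCRIP at 0.06 and 0.04. SYNCRIP had opposite signs in the 2 lines with quantile normalization.

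Lower values were small. RALY, a relative of HNRNPC, had the largest shared decrease in its brightest probe set, with 1057 (control), 951 (line 1) and 967 (line 2) (log2 -0.15 and -0.13). The second RALY probe set was lower as well, at -0.20 and -0.22, and the third was at 0.15 and 0.05. HNRNPM, which binds GU-rich RNA, read 6466, 5957 and 6149, and its second probe set went the other way, at 0.18 and 0.14. HNRNPL, a CA-repeat binder, read 476, 439 and 452, and its other probe set was lower too (-0.06 and -0.12). HNRNPUL1 was at -0.03 and -0.04, the polypyrimidine tract protein PTBP1 at 0.0050 and -0.04, and HNRNPLL at 0.04 and -0.02. None of these genes was 1.3-fold from control by its brightest probe set. The other 2 HNRNPLL probe sets above the filter were higher, at 0.33 and 0.31 and at 0.48 and 0.34.

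Among the SR genes, SRSF8 and SRSF3 had the largest differences by the brightest probe set. SRSF8, a close relative of SRSF2, was measured by 1 probe set that read 326 (control), 467 (line 1) and 447 (line 2) (1.43-fold and 1.37-fold). SRSF3, a small SR protein that also acts in mRNA export, read 4005, 5404 and 5236 (1.35-fold and 1.31-fold). SRSF2 was at log2 0.30 and 0.26, SRSF6 at 0.16 and 0.29, SRSF7 at 0.10 and 0.20, and SRSF1 at 0.09 and 0.18. SRSF4 read 796, 755 and 732 and SRSF9 read 6371, 6227 and 5908, with the control the highest of the 3 arrays for both. The second SRSF9 probe set was higher than control, at 0.16 and 0.11, and SRSF9 was at 0.069 and 0.051 with the median of its probe sets. SRSF5, SRSF10, SRSF11, TRA2A and TRA2B were between -0.09 and 0.05 in both lines, each slightly above control in line 1 and slightly below it in line 2. Their other probe sets above the filter were mostly higher. Of SRSF10 5 of 7 were higher in both lines, with medians of 0.31 and 0.23 for those other than the brightest and the largest at 0.57 and 0.58. Of SRSF5 7 of 8 were higher in both lines (medians of the others 0.25 and 0.06), and of SRSF11 3 of 5 (0.25 and 0.10).

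The median log2 difference of the 24 hnRNP genes was 0.15 in line 1 and 0.13 in line 2, and that of the 13 SR genes 0.05 and -0.02, beside -0.03 and -0.02 over all 11329 genes. The SR median in line 2 was 0.01 after cyclic loess, 0.20 with the mean and 0.24 with the median of all probe sets of each gene, so its sign depended on how the arrays were scaled and the probe sets were summarised. The hnRNP medians were 0.074 and 0.071 without probe sets ending in _x_at or _s_at. They were 0.15 in both lines with the mean and 0.18 and 0.17 with the median of all probe sets. The SR medians were then the higher of the 2 families, at 0.18 and 0.20 with the mean and 0.25 and 0.24 with the median, so the order of the families turned with the summary of probe sets.

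Some probe sets that met the 1.5-fold rule were not the brightest of their gene. Of the 171 probe sets 154 passed the intensity filter, and of these 10 were called higher and 0 lower, against 1.41% and 0.11% of all 22670 such probe sets. At 1.3-fold 27 were higher and 0 lower, against 5.5% and 0.723% of all. The 10 belonged to 9 genes, 6 hnRNP and 3 SR genes. In addition to the 4 genes above, these were HNRNPA1, HNRNPDL, SRSF3, TRA2A and TRA2B, each through a probe set that was not the brightest. Of the 32 members with at least 2 probe sets above the filter 8 had a called one, and of all genes with at least 2 such probe sets 4.02% did. The number of probe sets per gene was not matched here, and a gene with more of them has more chances of a called one. Members had 154 above the filter over 37 genes, against 22670 over 11329 genes in all. By any amount, 112 of 154 probe sets were higher and 24 lower than control in both lines, against 37.8% and 44.7% of all probe sets.

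**Figure D2:**
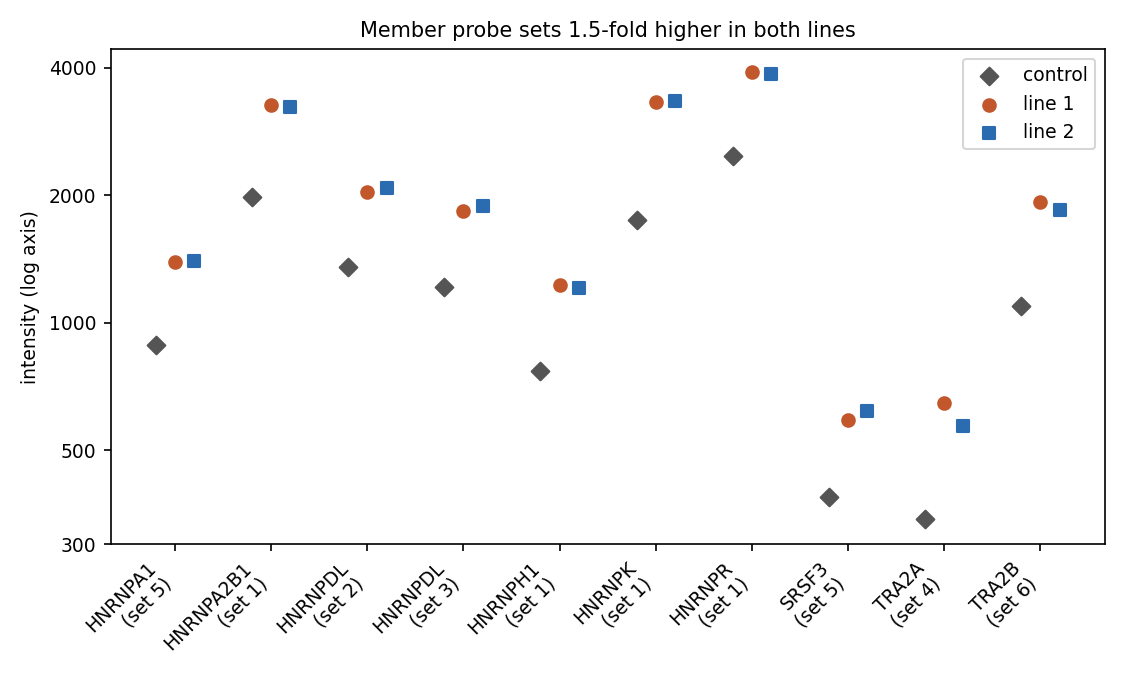
Intensity on the control, line 1 and line 2 arrays (log axis) of the 10 probe sets above the filter that were 1.5-fold higher in both lines, with the place of each in its gene's order of brightness in brackets. In each of the 10 the control lies below both lines, and levels can be compared only within a probe set.

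The TRA2 genes, which encode SR-like proteins that bind GAA-rich exonic enhancers, had probe sets that differed widely. The brightest TRA2A probe set read 847 (control), 870 (line 1) and 794 (line 2). The fourth read 343, 648 and 569, a log2 difference of 0.92 and 0.73, and the third 458, 750 and 676, or 0.71 and 0.56. Thus 2 of the 5 TRA2A probe sets were clearly above control and the other 3 were between -0.09 and 0.21. The brightest TRA2B probe set read 3856, 3897 and 3780.5, and the sixth 1095, 1923 and 1844, at 0.81 and 0.75. All 8 other TRA2B probe sets above the filter were higher in both lines, with medians of 0.18 and 0.12.

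SRSF3, HNRNPDL and HNRNPA1 were likewise called by dimmer probe sets. The fifth SRSF3 probe set read 388 (control), 590.5 (line 1) and 618 (line 2), at log2 0.61 and 0.67, while the second and the third lay at 0.06 to 0.09. HNRNPDL, an AU-rich-element binder related to HNRNPD, had 2 called probe sets. They read 1355, 2037 and 2074 and 1216, 1837 and 1889, with the brightest at 2158, 2266 and 2348. The fifth HNRNPA1 probe set read 887, 1390.2 and 1399.7, at 0.65 and 0.66, and the other 4 were at 0.26 to 0.53 in line 1 and 0.31 to 0.49 in line 2.

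**Figure D3:**
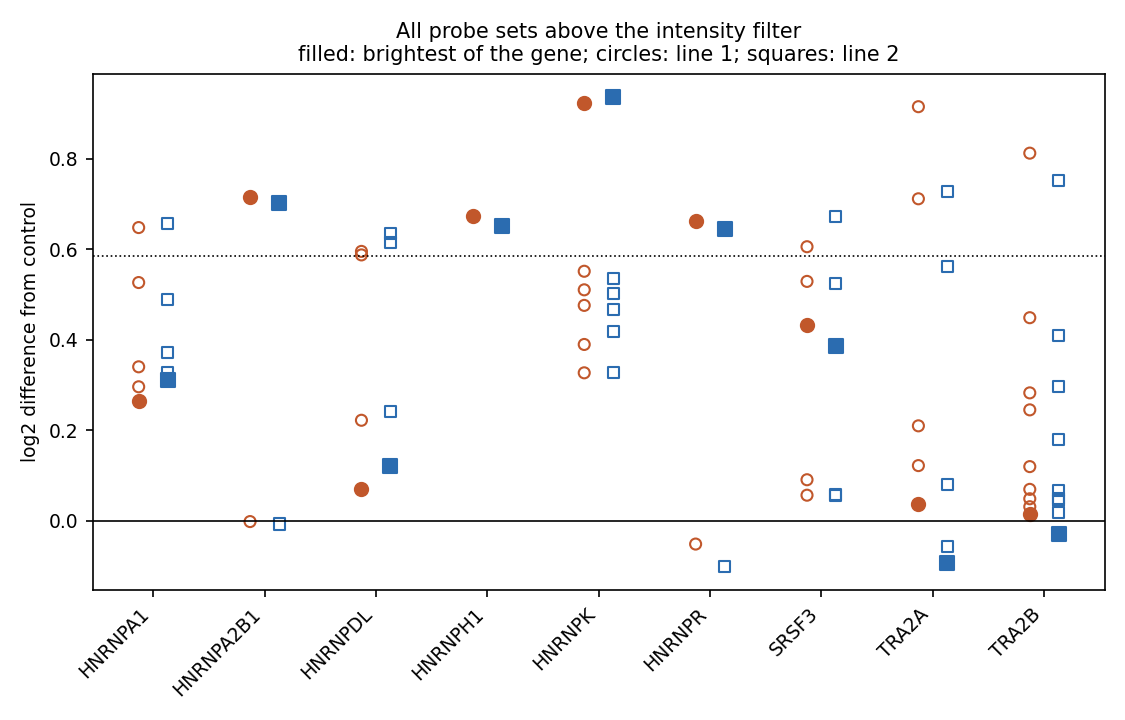
Log2 difference from control of every probe set above the filter, for the 9 genes with a called probe set, with filled symbols for the brightest, circles for line 1, squares for line 2 and a dotted line at 1.5-fold. HNRNPK and HNRNPA1 have all probe sets above 0, while HNRNPA2B1 and HNRNPR have 1 near or below it.

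No gene with several probe sets had all of them called. Of the 32 genes with at least 2 probe sets above the filter, 9 had every one of these higher in both lines: HNRNPA0, HNRNPA1, HNRNPDL, HNRNPK, HNRNPU, SRSF2, SRSF3, SRSF6 and SRSF7. HNRNPL was the only one of the 32 with every one lower. Over all 5840 genes with at least 2 probe sets above the filter, 18.2% had every one higher and 22.3% every one lower. SRSF1, the founding SR protein, had probe sets on both sides. The second read 822, 647 and 726 (-0.34 and -0.18) and the third 804, 589.7 and 649.7 (-0.45 and -0.31), whereas the fifth read 284, 375 and 389, at 0.40 and 0.45. Which exons or ends of a transcript each probe set reads was not determined.

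Between the 2 brightest probe sets of a gene, the log2 differences from control were a median of 0.18 apart in line 1 and 0.19 in line 2 over the 32 genes, beside 0.12 in both lines over the 5828 genes that could be compared. HNRNPA2B1 and HNRNPR were 1.5-fold apart in both lines, 2 of 32 against 2.14% of all genes. By type of probe set, the median in line 1 was 0.22 for the 46 probe sets ending in _x_at, 0.17 for the 53 in _s_at (a name for probes shared by several transcripts), 0.18 for the 10 in _at and 0.12 for the 45 in _a_at (a name for probes that match transcripts of 1 gene). In line 2 the medians were 0.19, 0.22, 0.12 and 0.05. Over all probe sets above the filter the corresponding medians were -0.03, 0.07, -0.02 and -0.03 in line 1 and -0.03, 0.06, -0.01 and -0.03 in line 2. The 17 probe sets of these genes below the filter had medians of 0.02 and 0.03, and none was called. Of those above it, 5 of 53 in _s_at were called higher (128 of 3737 over all genes) and 3 of 45 in _a_at (105 of 10761). In _x_at 2 of 46 were called higher (49 of 4370) and in _at 0 of 10 (37 of 3802). The called probe sets of HNRNPK, HNRNPA2B1 and HNRNPR end in _s_at, the type called higher most often over all genes.

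The 2 hairpin lines were close to each other in these genes. The difference between line 1 and line 2 does not involve the control array, and its SD was 0.07 over the 37 genes and 0.11 over all genes above the filter. The largest difference among the 154 probe sets was 1.17-fold, in SRSF5. SRSF11 and TRA2A were higher in line 1 than in line 2 in 5 of 5 probe sets each, with medians of 0.17 and 0.15, and SRSF5 in 6 of 8, with a median of 0.15. HNRNPF was higher in line 2 in 7 of 7 probe sets (median -0.10 for line 1 minus line 2) and HNRNPAB in 3 of 3 (-0.13). Probe sets of a gene read the same RNA and are not replicates, and with 1 array per line none of these differences has a test.

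**Figure D4:**
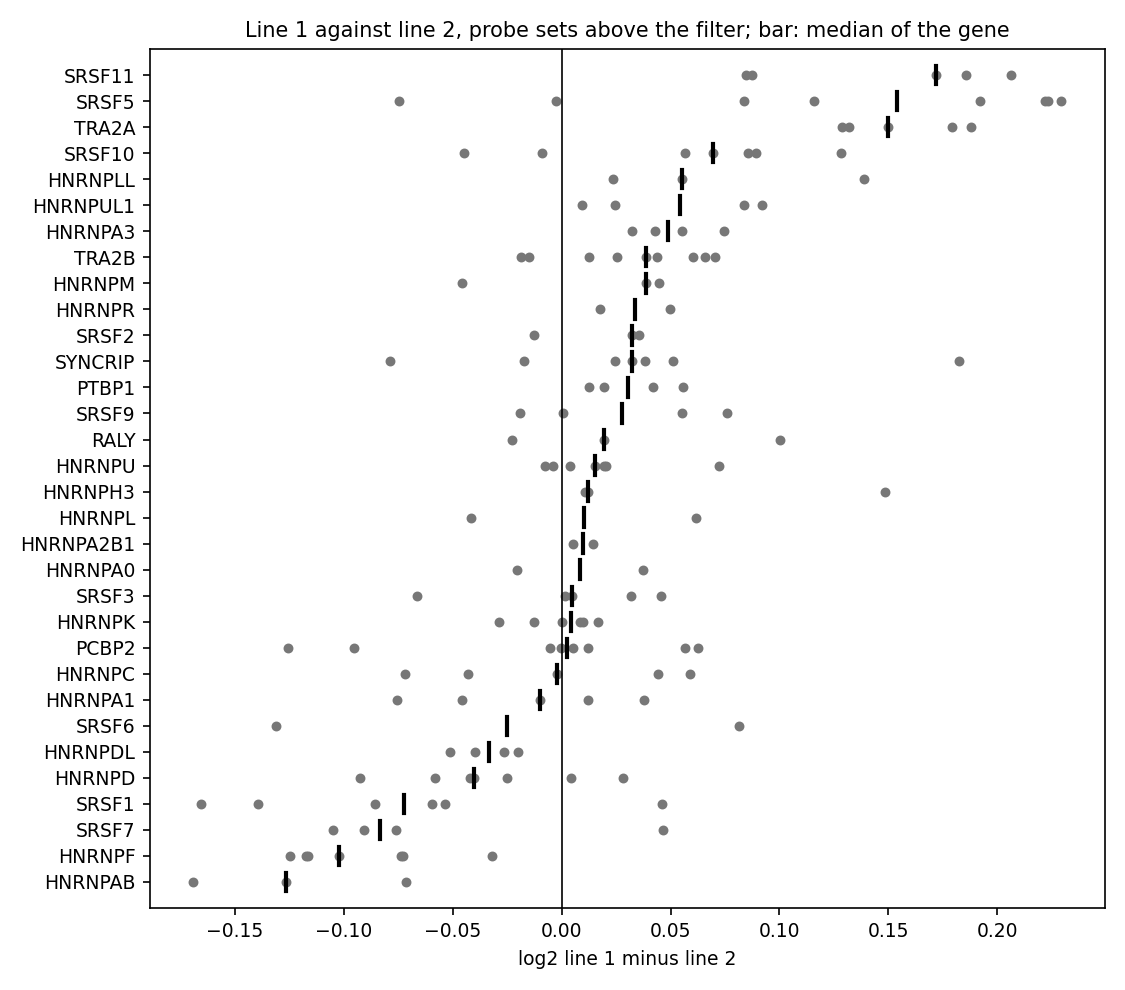
Log2 difference between line 1 and line 2 for each probe set above the filter (points) and the median per gene (bars), for the 32 genes with at least 2 such probe sets. All points of SRSF11 and TRA2A lie to the right of 0 and all points of HNRNPF and HNRNPAB to the left.

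Several of these genes start close to the start of a gene on the opposite strand. Only distance and strand were used, and whether the 2 genes share a promoter was not determined. An annotated start on the other strand lay within 1000 bases for 12 of the genes, and 7 such neighbours had a brightest probe set above the filter, of which 6 were higher in both lines by any amount (36.5% of all genes). CBX3, which encodes a heterochromatin protein and starts 697 bases from HNRNPA2B1, read 2908 (control), 3893 (line 1) and 3959.8 (line 2) (1.34-fold and 1.36-fold). RMI1, a subunit of a complex that resolves recombination intermediates, starts 144 bases from the nearest HNRNPK start and read 373, 467 and 469 (1.25-fold and 1.26-fold). LRRC40, 117 bases from a start of SRSF11, read 361, 587 and 569.6 (1.63-fold and 1.58-fold), while the brightest SRSF11 probe set was at log2 0.05 and -0.03. DYNLL1 next to SRSF9, ENOPH1 next to HNRNPDL and PBLD next to HNRNPH3 were between 0.02 and 0.18, and TTC9C next to HNRNPUL2 was at -0.02 and -0.01.

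Other genes of the splicing pathway were read from lists chosen with earlier results known, and 1.36% of all genes were called higher by the same rule. The SR protein kinases and the SR importer had 0 of 7 genes called and medians of -0.13 in both lines, with SRPK1 at 0.38 and 0.34, CLK1 at 0.40 and 0.20 and SRPK2 at -0.16 and -0.33. SR-related proteins had 1 of 14 called higher, and medians of 0.17 and 0.13. That gene was U2AF2, the large subunit of the factor that binds the polypyrimidine tract at the 3' splice site (1162, 2008 and 2111), whose second probe set was lower, at -0.19 and -0.21. Other splicing regulators had 2 of 26 called higher and medians of 0.19 and 0.17. These were the muscleblind genes MBNL1 (0.60 and 0.74) and MBNL3 (0.76 and 0.90). The other MBNL3 probe sets above the filter lay between -0.31 and 0.14. For MBNL1, MBNL3 and SF3B5, a spliceosome subunit of the U2 list, a probe set that was not called was the brightest on the control array.

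The core machinery had medians near those of all genes. The U1 and U2 snRNP proteins had 1 of 23 called higher, SF3B5 (0.63 and 0.64), and medians of -0.02 and -0.08. The other SF3B5 probe set was lower than control in both lines, at -0.15 and -0.09. The U4/U6.U5 and catalytic complex proteins had 0 of 19 called and medians of -0.04 and -0.05, with PRPF3 at -0.34 and -0.43. Factors of nonsense-mediated decay, the pathway that removes many SR and hnRNP transcripts with included premature stop codons, had 0 of 7 called and medians of -0.01 and -0.12, with UPF1 at -0.35 and -0.25 and SMG5 at -0.21 and -0.32. In none of these lists was a gene called lower. Values of list genes are those of the brightest probe set, and other probe sets were read only for the called genes. Decay of transcripts was not measured.

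**Figure D5:**
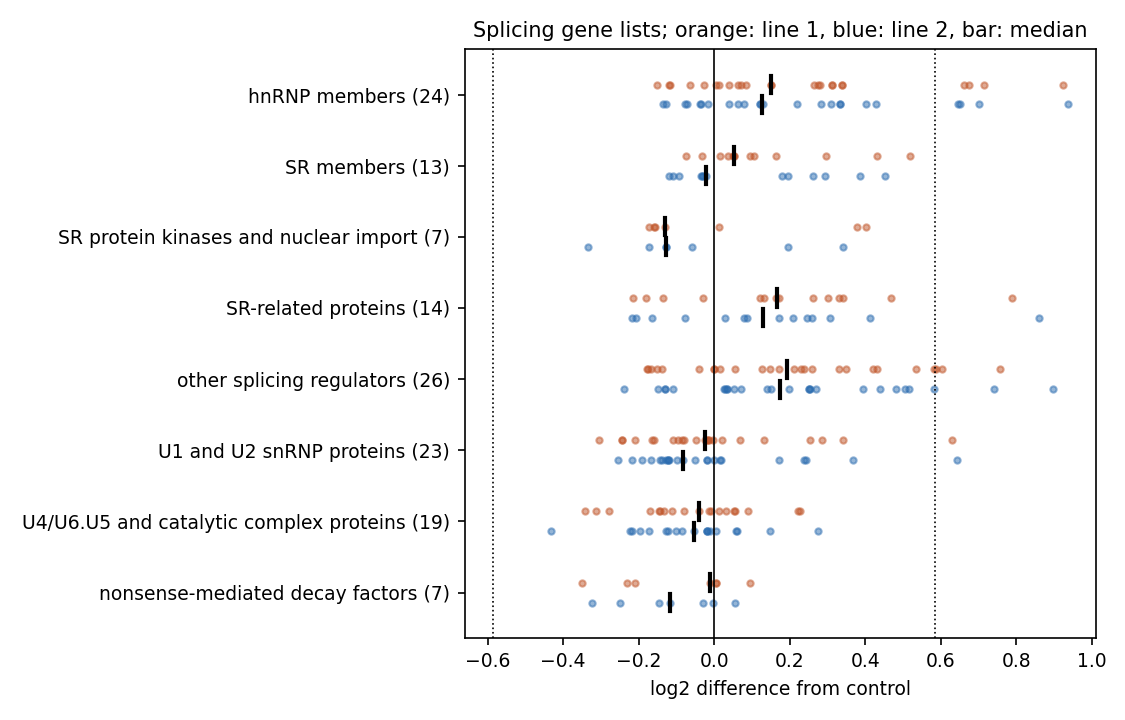
Log2 difference from control of each gene above the filter, in line 1 (orange) and line 2 (blue), for the hnRNP and SR genes and 6 other lists of splicing genes, with bars at the medians, numbers of genes in brackets and dotted lines at 1.5-fold. The hnRNP bars lie at 0.15 and 0.13 and the SR bars at 0.05 and -0.02.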

How the data were processed

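Total RNA from 3 Caco-2 cultures was converted to biotin-labelled cRNA and hybridised to oligonucleotide arrays, per the labels' protocols. The authors deposited, for each array, a linear intensity for every probe set. Per the submitters' processing notes RMA was used, with no version stated. Background treatment and scaling are not given in the sources used here. The intensities were taken to log2 without further normalization, and groups came from the sample titles, 1 array each. A test on log2 values was not used, since no group has a replicate.

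Symbols came from the platform's annotation (44988 had 1 symbol, 1832 several, 2473 none, and 102 were array controls). For all 171 member probe sets the symbol matched NCBI RefSeq (GRCh38.p14) by gene identifier. The members and lists were chosen with earlier results of these data known. Genes named are all members, with each array's value for those called and the 5 next each way, and up to 4 per other list (called genes, otherwise those farthest from control). Genes whose dimmer probe sets were called, neighbours on the opposite strand, and the further probe sets and list genes given were named after their values were seen. The code of the 1.5-fold rule was tested on simulated data, which says nothing about the error of these arrays. Alternatives were quantile normalization, cyclic loess and normexp (offset 50; limma 3.58.1, R 4.3.3), a constant subtracted, other summaries and types of probe sets, no filter, the brightest probe set on the control array (added after the values were seen), and 1.3-fold and 2-fold thresholds. Python 3.11.15, numpy 2.4.6, pandas 2.3.3 and matplotlib 3.10.9 were used for the rest.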

Additional observations from a re-analysis of the deposited data

Results flagged for a closer look

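For 9 genes the brightest probe set lay on opposite sides of control in the 2 lines, a difference that was not tested. The log2 differences in line 1 and line 2 were 0.040 and -0.016 for HNRNPLL, 0.038 and -0.094 for TRA2A, 0.0050 and -0.037 for PTBP1, -0.063 and 0.064 for HNRNPAB, and 0.015 and -0.029 for TRA2B. They were 0.052 and -0.032 for SRSF5, 0.014 and -0.13 for HNRNPH3, 0.053 and -0.034 for SRSF11, and 0.049 and -0.020 for SRSF10. For scale, the SD of the difference between the lines was 0.11 over all genes.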

How the results depend on the processing

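Scaling left most signs as they were. Of the 37 genes, 37 kept their signs in both lines with a constant subtracted or with normexp, 33 with cyclic loess and 28 with quantile normalization. No scaling moved the median of all genes by over 0.1, but the members moved further than that median. In line 1 quantile normalization took the median of all genes from -0.026 to -0.052 and that of the members from 0.095 to 0.0054. In line 2 it took the median of all genes from -0.019 to -0.026 and that of the members from 0.12 to 0.077. With quantile normalization 6 member probe sets were called higher in place of 10 (14 with a constant subtracted, 11 with normexp), and the medians in lines 1 and 2 were 0.0054 and 0.077 for all members, 0.10 and 0.079 for hnRNP and, in line 1, 0.00054 for SR genes. Cyclic loess gave 0.046 and 0.10 for all members and 0.12 and 0.10 for hnRNP genes. With a constant subtracted OCC-1 was at -1.75 in line 2, in place of -1.62. The share of all probe sets called was not taken under these scalings, so the counts of members called have no background beside them.

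The choice of probe set moved more. With the mean of all probe sets 1 gene was called, the hnRNP gene HNRNPH1, and medians were 0.17 and 0.17 for all members and 0.18 and 0.20 for SR genes. With the median of probe sets 2 hnRNP genes were called, HNRNPDL and HNRNPH1, with medians of 0.21 and 0.22 for all members, 0.18 and 0.17 for hnRNP and 0.25 and 0.24 for SR genes. Without probe sets ending in _x_at or _s_at, 27 genes were left, 18 of them hnRNP. Then HNRNPDL and HNRNPH1 were called, 2 genes, and medians were 0.054 and 0.064 for all members and 0.074 and 0.071 for hnRNP genes. HNRNPA2B1 turned to -0.0014 and -0.0067 and HNRNPR to -0.051 and -0.10 there, because their probe sets called higher end in _s_at, and HNRNPK had none left. With the brightest probe set on the control array, chosen after seeing the data, 2 hnRNP genes were called, the hnRNP median in line 1 was 0.12, and HNRNPR was again at -0.051 and -0.10. At 1.3-fold 2 SR genes and 27 member probe sets were called higher, and at 2-fold 0 genes. The filter on low values changed no count of genes. Shares of all genes called were not taken with the mean, with the median, without _x_at and _s_at probe sets or without the filter. Of 244 values of the 14 genes given in full under the alternatives, 227 had the sign given in the report. Part of this count was fixed beforehand. Without the filter the 28 values could not change, because the brightest probe sets all pass it. HNRNPH1, SRSF8 and SRSF4 have 1 probe set each, so other summaries repeat their values. No paired analysis was possible because each group has 1 array. With 1 array per group, the spread between cultures is unknown for every value.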
